A study of Mus musculus with 2 samples.

Results

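In CUT&RUN libraries from adipose regulatory T cells, peaks were called at the ends of several variable (V) gene segments for the T cell receptor β chain, and 5 such segments are described here. The segments are Trbv3, Trbv4, Trbv8, Trbv13-1 and Trbv29, on mouse chromosome 6 (mm10). They were chosen because a peak summit in at least 1 of 2 deposited peak lists lay inside the segment, so the presence of a summit in a segment is how the members were picked and not a finding. They are 5 of 35 annotated Trbv segments, and their peaks are 9 of the 313 peaks in both lists together: 5 of 219 in the HIF-1α list and 4 of 94 in the PPAR-γ list.

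The cells were regulatory T cells sorted as TCRβ+CD4+CD25hiYFP+ from the stromal vascular fraction of adipose tissue. The donors were untreated 4-month-old male C57BL/6 mice of the genotype Foxp3Cre, in which Cre is tied to Foxp3, the lineage factor of these cells, and about 30000 cells entered each assay; how many mice were pooled is not given in the sources used here. In CUT&RUN, micrococcal nuclease fused to protein A is brought by an antibody to sites on chromatin, and the DNA it cuts free is sequenced. The antibodies were raised against HIF-1α, a transcription factor subunit that accumulates in low oxygen, and PPAR-γ, a nuclear receptor that responds to lipids. Both libraries, 1 for each antibody, share the strain, age, sex and genotype above, and a control antibody library was not analysed here. Differences between the libraries therefore have no replicate check, and no p-value is given for them. Whether a library made without a specific antibody would hold the same peaks was not tested. The lists hold no expression values, so the labelled cell type could not be checked against its marker genes in this way. The HIF-1α library kept 5737208 tags after duplicate removal and the PPAR-γ library 2145910, a depth ratio of 2.67.

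The T cell receptor β chain is assembled in the thymus by V(D)J recombination. The RAG recombinase cuts at a recombination signal, made of a heptamer, a spacer and a nonamer, that lies directly after the 3′ end of each variable segment, and a variable segment is joined to a diversity and a joining segment upstream of a constant gene. The promoter of a variable segment lies before its other end, where the leader exon starts. Since the diversity, joining and constant genes lie at higher coordinates than the 5 members, and only the last segment, Trbv31, is known to point the other way, the higher-coordinate end of each member is the end next to its recombination signal. Distances below are measured from that last base of the annotated segment; bases inside the segment are before it and bases past it are on the recombination signal side.

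Trbv3 (Tcrb-V16 in older names) spans chr6:41048394-41048824 and is annotated as a V segment. Trbv4 (Tcrb-V10) spans chr6:41059443-41059886 and is annotated likewise. Trbv8 spans chr6:41084669-41085107 and is annotated as a V segment pseudogene. Trbv13-1 (Tcrb-V8.3) spans chr6:41116036-41116468 and is a V segment. Trbv29 (Tcrb-V7) spans chr6:41271403-41271881 and is annotated as a pseudogene in the gene table used here. By that annotation, 3 of the 5 members are V segments and 2 are pseudogene segments, and among all 35 Trbv segments 22 and 13 are. Other annotations may differ and were not compared. The members are 431 to 479 bp long, with a median of 439 bp, inside the range of the other 30 segments (284 to 705 bp, median 458.5 bp). The first 4 lie within 68.1 kb, in a run of 11 segments of which 7 had no summit, and Trbv29 lies 155 kb further on, past 19 segments without a summit.

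In the HIF-1α list the Trbv3 peak ran from 285 bp before the segment end to 253 bp past it, with its summit 14 bp before the end. In the PPAR-γ list it ran from 296 bp before the end to 1 bp before the end, with its summit 16 bp before the end. The summits of both libraries thus lay 2 bp apart, while the PPAR-γ peak stopped at the segment end and the HIF-1α peak continued past it.

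At Trbv4 the HIF-1α peak ran from 284 bp before the end to 245 bp past it, with the summit 16 bp before the end. The PPAR-γ peak ran from 38 bp before the end to 257 bp past it, with the summit 15 bp before the end. Here it was the recombination signal side that the PPAR-γ peak covered, and only 8.78% of the segment lay under it, against 64.2% under the HIF-1α peak.

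At Trbv8 the HIF-1α peak ran from 294 bp before the end to 234 bp past it, with the summit 28 bp before the end. The PPAR-γ peak ran from 304 bp before the end to the last base of the segment, with the summit 29 bp before the end. As at Trbv3, the PPAR-γ peak covered the segment side alone.

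At Trbv13-1 both peaks covered the recombination signal side. The HIF-1α peak ran from 48 bp before the end to 244 bp past it, and the PPAR-γ peak from 53 bp before the end to 253 bp past it, with summits 13 and 12 bp before the end. Trbv29 had a peak in the HIF-1α list alone, from 288 bp before the end to 247 bp past it, with the summit 21 bp before the end.

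**Figure D1:**
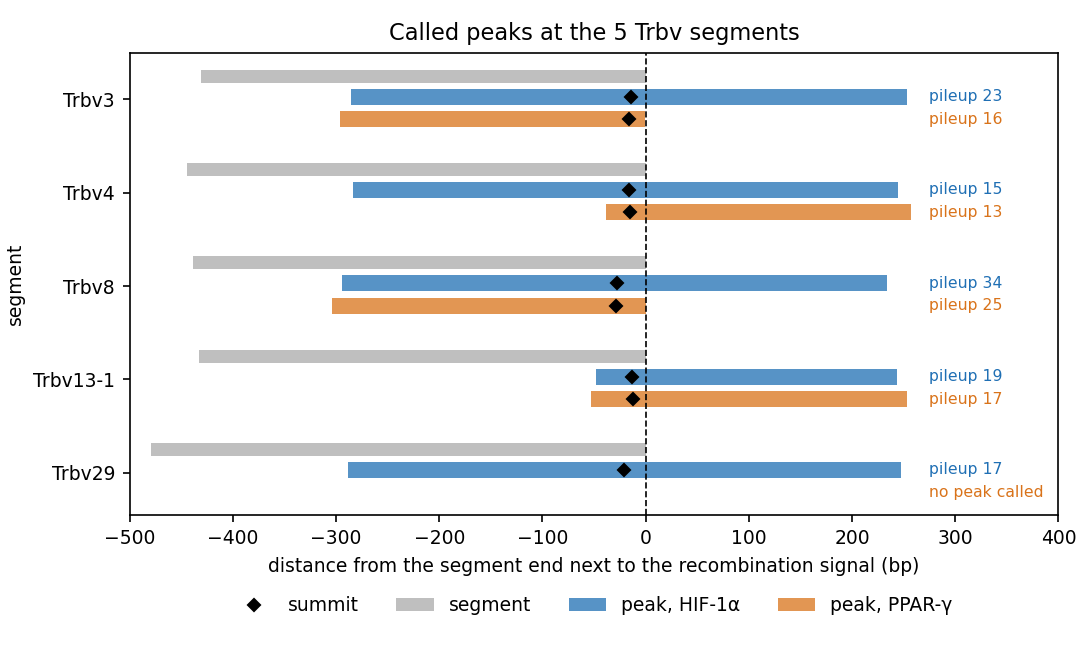
Called peaks of both libraries (coloured bars) at the 5 segments (grey bars), by distance in bp from the segment end next to the recombination signal (dashed line); diamonds mark summits and the pileup is given at the right. All 9 summits sit 12 to 29 bp before the segment end. From the summit, 4 HIF-1α peaks reach far to both sides and every PPAR-γ peak reaches far to a single side.

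The summit distances of the HIF-1α list had a median of 16 bp and a range of 13 to 28 bp before the segment end, and those of the PPAR-γ list a median of 15.5 bp and a range of 12 to 29 bp. Trbv8 had the summit farthest inside in both lists and Trbv13-1 the one nearest to the end. No peak reached the lower-coordinate end of its segment, where the leader exon and the promoter lie. The peak starts lay 134 to 405 bp after that end. The caller extended each tag by 284 bp (HIF-1α) or 295 bp (PPAR-γ), and the members are 431 to 479 bp long. Tags beginning near these summits could therefore not reach the lower-coordinate end. The extension length largely sets where the peaks start, and the starts say nothing about signal at the promoter.

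Summits this close to the end of an annotated gene were few in the lists. Of 192 HIF-1α summits on chromosomes, 86 (44.8%) lay inside an annotated gene. Of the 192, 8 (4.17%) lay inside an annotated gene and within 30 bp of one of its ends, and 5 of these 8 were the members. The other 3 were at Gm10190, a long noncoding RNA gene, Vmn2r29, a vomeronasal receptor gene, and Mir6236, annotated as a microRNA gene. Of 85 PPAR-γ summits, 41 (48.2%) lay inside an annotated gene and 5 (5.88%) also within 30 bp of an end, namely the 4 members and Mir6236. The 30 bp limit and these names were chosen after the values were seen, and the counts are a description, since the rule picked the members by where their summits lay. The shares also take no account of gene length. In members of 431 to 479 bp, the bases within 30 bp of an end are a larger part than in a longer gene.

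The peaks came in 2 shapes. The 4 peaks that reached far to both sides of the summit were HIF-1α at Trbv3, Trbv4, Trbv8 and Trbv29. They were 529 to 539 bp long, with the summit 261 to 267 bp from the nearer peak edge. The other 5 peaks, HIF-1α at Trbv13-1 and all 4 PPAR-γ peaks, lay mostly on a single side of the summit. They were 293 to 307 bp long, with the summit 15 to 41 bp from the nearer edge. Those at Trbv4 and Trbv13-1 still crossed the segment end and held 39 to 54 bp of the segment. These lengths relate to the length to which the peak caller extended each tag, 284 bp in the HIF-1α library and 295 bp in the PPAR-γ library, per the file headers. The single-sided peaks were 1 to 12 bp longer than that length, which is also the shortest peak the caller could report, and the peaks on both sides were 29 to 39 bp shorter than 2 such lengths.

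A summit within 50 bp of a peak edge occurred in 21 of 219 HIF-1α peaks (9.59%) and in 11 of 94 PPAR-γ peaks (11.7%). Of the members, 1 of 5 HIF-1α peaks and 4 of 4 PPAR-γ peaks had it. Within 75 bp there were 36 (16.4%) and 18 (19.1%), with the same member counts. A peak length within 15 bp of the extension length was more common, at 23.7% of the HIF-1α and 24.5% of the PPAR-γ peaks, and the same members had it. Over all peaks the median distance from summit to nearer edge was 171 bp with HIF-1α and 171.5 bp with PPAR-γ. Both limits were set after the values were seen, and the shapes were not tested.

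**Figure D2:**
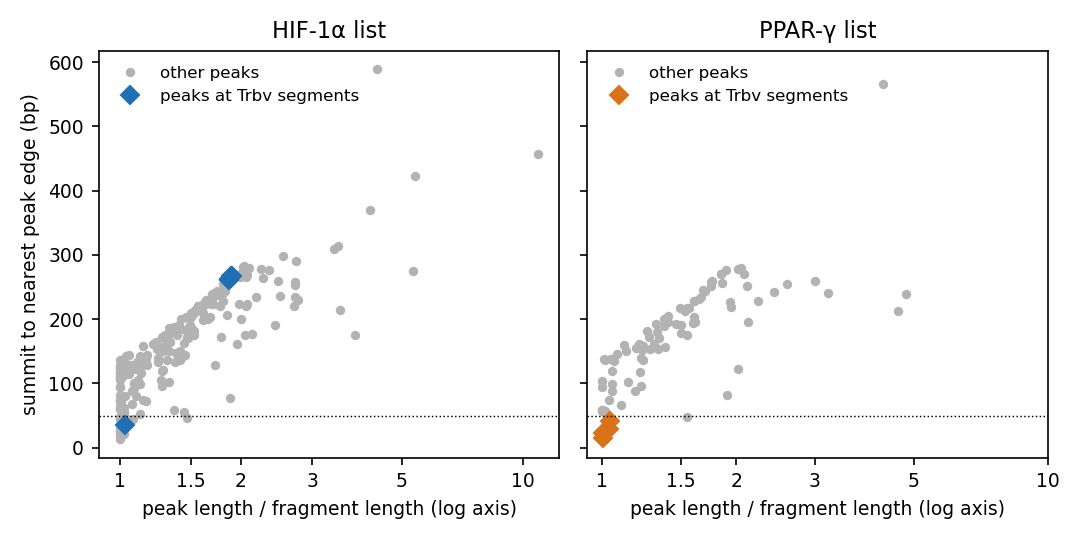
Distance from summit to the nearer peak edge (bp) against peak length in units of the extension length (log axis) for every peak of the HIF-1α list (left) and the PPAR-γ list (right); diamonds are the peaks at Trbv segments and the dotted line marks 50 bp. The 4 PPAR-γ diamonds lie below the line at a length close to 1 unit, and 4 of the 5 HIF-1α diamonds lie together above 250 bp at a length close to 2 units.

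The outer edge of a peak moves with the extension length, and the difference of 11 bp between the libraries was nearly what the outer edges differed by: the starts lay 11 bp apart at Trbv3 and 10 bp apart at Trbv8, and the ends lay 12 bp apart at Trbv4 and 9 bp apart at Trbv13-1. Taking the extension length off an outer edge gives the place where the tags that ran to that edge began. On the segment side this place lay 2 bp before the segment end at Trbv3 in both libraries, 11 (HIF-1α) and 10 bp (PPAR-γ) before it at Trbv8, and, in the HIF-1α library alone, 1 bp before it at Trbv4 and 5 bp before it at Trbv29. For the edge on the recombination signal side it lay inside the segment, so those tags, as extended by the caller, crossed the segment end. How far the sequenced reads themselves aligned past that end is not given in the peak lists. This place lay 38 and 37 bp before the end at Trbv4 and 39 and 41 bp before the end at Trbv13-1. In the HIF-1α library it lay 30 bp before the end at Trbv3, 49 bp at Trbv8 and 36 bp at Trbv29. Where a side was called in both libraries, the values thus differed by at most 2 bp. This calculation assumes that every tag was extended by the full length and that the edge of the called peak is the edge of the tags. The called inner edges of the single-sided peaks lay 1 to 12 bp from the calculated place. By construction this is the length of those peaks beyond the extension length, so it is no check of the calculation.

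The pileup, which counts the extended tags that cover the summit base, was 23 in the HIF-1α library and 16 in the PPAR-γ library at Trbv3, and 15 and 13 at Trbv4. At Trbv8 it was 34 and 25, the highest of the members in both libraries. At Trbv13-1 it was 19 and 17, and at Trbv29 it was 17 in the HIF-1α library with no PPAR-γ peak. Trbv8 stood highest in each library. Its 95% Poisson interval in the HIF-1α library (23.5 to 47.5) overlapped that of Trbv3 (14.6 to 34.5) and of the other 3. In the PPAR-γ library its interval (16.2 to 36.9) overlapped all the others. Such an overlap does not show that members are alike, and no test compared them. The order below Trbv8 was not resolved by counting error: Trbv4 with 15 tags had an interval of 8.40 to 24.7 in the HIF-1α library. All intervals cover counting error only. PCR copies of a molecule could not be told from new molecules other than by position, and the caller kept 1 tag per position. Where tags begin at few bases this caps the pileup. The intervals do not cover that limit, and its size was not tested.

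Within their lists most of these peaks were below the median in pileup. In the HIF-1α list, whose median pileup was 22, Trbv8 ranked 74 of 219, Trbv3 ranked 105, Trbv13-1 ranked 127, Trbv29 ranked 144 and Trbv4 ranked 164. In the PPAR-γ list, with a median of 25, Trbv8 ranked 45 of 94, Trbv13-1 ranked 69, Trbv3 ranked 72 and Trbv4 ranked 82. The authors' fold enrichment over local background was 8.38 to 13.7 at the 5 members in the HIF-1α list (list median 8.10) and 8.06 to 13.4 at 4 members in the PPAR-γ list (list median 9.81). The authors' −log10 q was 9.50 at Trbv4 and 28.7 at Trbv8 in the HIF-1α list, and 8.03 and 22.3 in the PPAR-γ list.

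**Figure D3:**
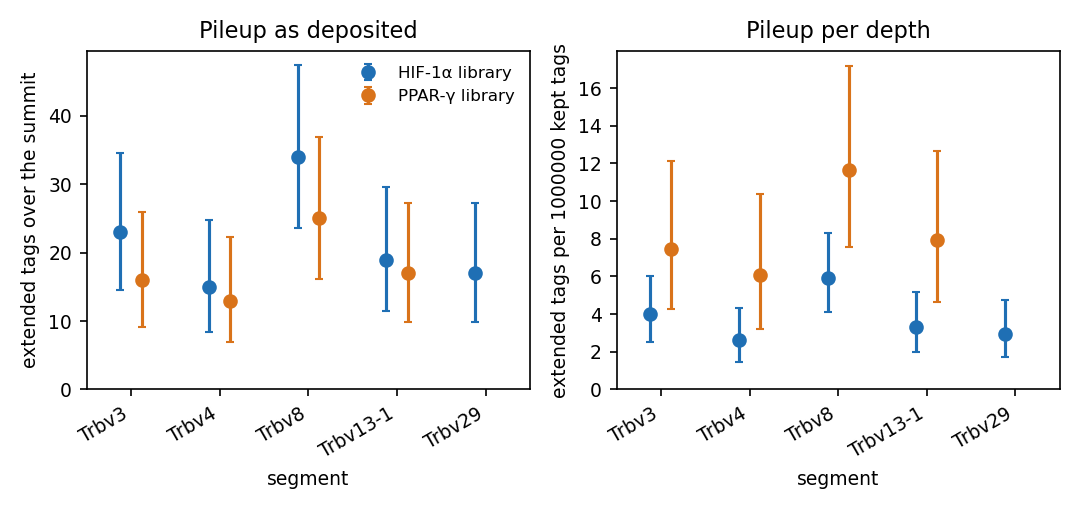
Extended tags over the summit at each segment, as deposited (left) and per 1000000 tags kept (right), in the HIF-1α (blue) and PPAR-γ (orange) library; points are single libraries and bars are 95% Poisson intervals for counting error. Trbv8 is highest in both libraries at 34 and 25 tags, and in proportion to depth the PPAR-γ points lie above the HIF-1α points at all 4 segments called in both; by fold enrichment over local background 3 of these 4 were lower with PPAR-γ.

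The local background in the lists allowed the tags around each summit to be counted. The caller computed it from the tags within 10000 bp, and dividing it by the extension length per window gave whole numbers, within 0.02, for 215 of 215 HIF-1α and 94 of 94 PPAR-γ peaks whose background lay above the genome-wide one. Around Trbv3 the window held 48 tags in the HIF-1α library and 26 in the PPAR-γ library. Around Trbv4 it held 32 and 25, around Trbv8 55 and 32, around Trbv13-1 39 and 26, and around Trbv29 31 in the HIF-1α library. Of the tags in the window, 46.9% (Trbv4) to 61.8% (Trbv8) lay over the summit in the HIF-1α library, and 52.0% (Trbv4) to 78.1% (Trbv8) in the PPAR-γ library. The exact 95% interval was 47.7 to 74.6% for Trbv8 in the HIF-1α and 60.0 to 90.7% in the PPAR-γ library. Over all peaks the median share was 37.9% for HIF-1α and 57.5% for PPAR-γ.

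What remained in the window after the summit's tags was 25 at Trbv3, 17 at Trbv4, 21 at Trbv8, 20 at Trbv13-1 and 14 at Trbv29 in the HIF-1α library. In the PPAR-γ library 10 remained at Trbv3, 12 at Trbv4, 7 at Trbv8 and 9 at Trbv13-1. At the genome size given in the file headers, the mean over the genome was 21.2 tags per window in the HIF-1α library and 7.95 in the PPAR-γ library. The rest of each window thus lay on either side of the genome-wide mean, and the excess of tags lay over the summit. Because the summit's own tags enter the local background, the deposited fold enrichment of such narrow peaks is lower than a fold over their surroundings would be.

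**Figure D4:**
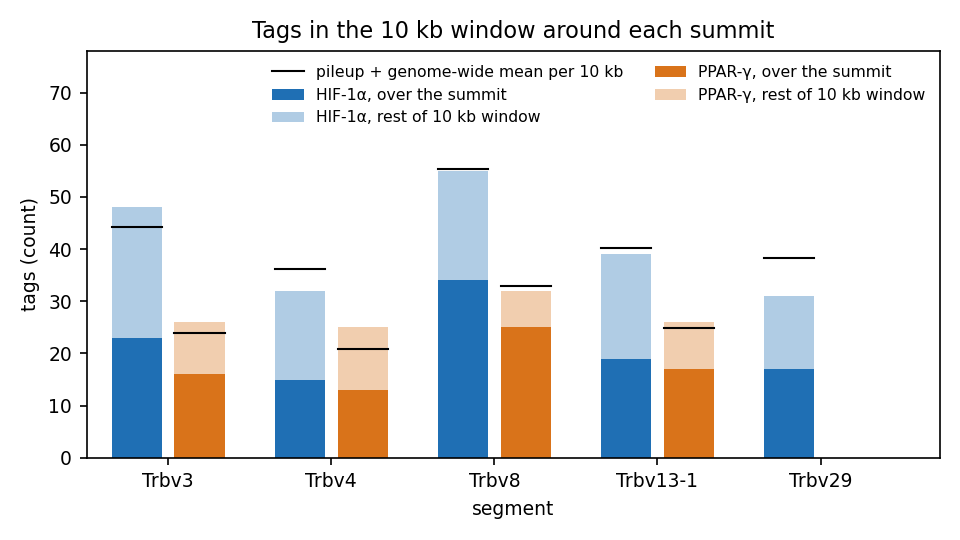
Tags (count) in the 10 kb window around each summit, split into those over the summit (dark) and the rest (light), for the HIF-1α (blue) and PPAR-γ (orange) library at each segment; black lines mark the summit's tags plus the genome-wide mean per window. The bars end near the black lines, with 14 to 25 remaining tags in the HIF-1α and 7 to 12 in the PPAR-γ library.

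A peak in both lists was called at 4 of the 5 members, where 40.6% of all HIF-1α peaks were overlapped by a PPAR-γ peak. From the other side, 4 of 4 PPAR-γ peaks at the members were overlapped by a HIF-1α peak, where 94.7% of all PPAR-γ peaks were. The summits at the 4 shared members lay 1 bp apart (Trbv4, Trbv8 and Trbv13-1) or 2 bp apart (Trbv3). Over all 90 overlapping pairs the median was 21.5 bp, and 13 pairs (14.4%), the 4 members among them, had summits at most 2 bp apart.

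Scaled by the tags kept in each library, the pileup was higher in the PPAR-γ library at the 4 shared members, with an interval above 1 at 3 of them. The pileup ratio of PPAR-γ to HIF-1α, scaled to depth, was 1.86 at Trbv3 (95% exact conditional binomial interval 0.918 to 3.68) and 2.32 at Trbv4 (1.01 to 5.22). It was 1.97 at Trbv8 (1.12 to 3.39) and 2.39 at Trbv13-1 (1.17 to 4.86). The interval included 1 at Trbv3 and lay just above 1 at Trbv4. This direction rests on the scaling by kept tags, and whether keeping 1 tag per position held down the deeper library more was not tested. By the ratio of the authors' fold enrichments, each over its own local background, the values were 0.947 at Trbv3, 0.961 at Trbv4, 0.979 at Trbv8 and 1.07 at Trbv13-1, so that the direction turned at 3 of the 4. All 4 ratios were at least 1.5, as were 53.3% of the 90 overlapping pairs, and the median of the members was 2.14 against 1.56 over all pairs. Among the 25 pairs whose HIF-1α pileup lay in the members' range, 80.0% were at least 1.5 and the median was 2.04, so the members stood close to pairs of their own strength. At most 1/1.5 were 0 of the members and 2.22% of all pairs. Pairs of this strength enter only when the shallower library reached a call, which favours high ratios. The rest of the window gave smaller depth-scaled ratios at all 4 segments, 1.07 at Trbv3, 1.89 at Trbv4, 0.891 at Trbv8 and 1.20 at Trbv13-1.

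**Figure D5:**
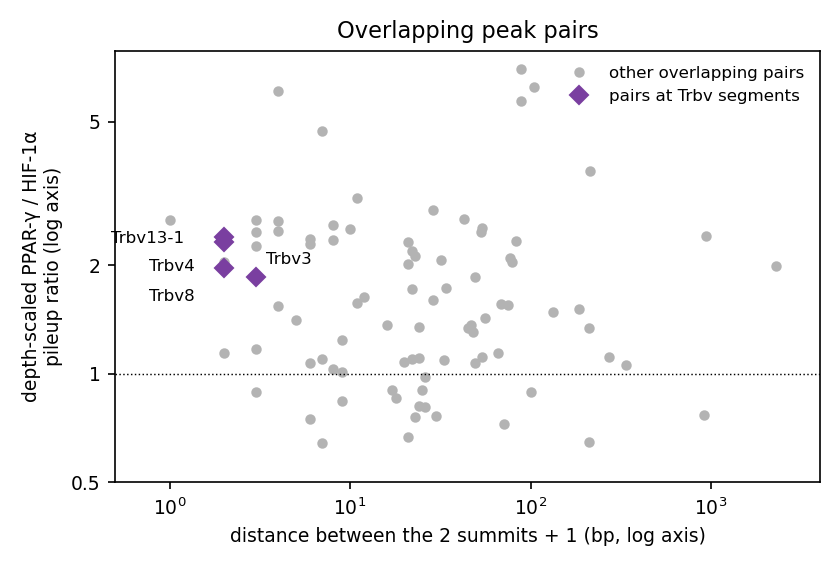
Depth-scaled PPAR-γ to HIF-1α pileup ratio (log axis) against the distance between the summits plus 1 bp (log axis) for all 90 overlapping peak pairs; diamonds are the 4 Trbv segments with a peak in both lists and the dotted line marks a ratio of 1. The diamonds lie at the left, at 1 or 2 bp between summits, with ratios from 1.86 to 2.39, against 0.947 to 1.07 by fold enrichment over local background.

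The HIF-1α pileup at Trbv29 was 17 tags, and the nearest PPAR-γ summit lay 155 kb from its end. At equal density per tag the PPAR-γ library would have held 6.36 tags there (3.70 to 10.2 from counting error in the HIF-1α library), and a call as weak as the weakest in that list, at a −log10 p of 8.44, would have needed 7 at the scaled local background. At the lowest of the 4 members' ratios it would have held 11.8 tags (6.89 to 18.9), where such a call at the members' own PPAR-γ background needed 10. Those ratios come from segments that reached a PPAR-γ call. Why Trbv29 had no PPAR-γ peak was not tested. The same reckoning bears on the sides. At the members' own background, a call as weak as the weakest of its library needed 8 to 10 tags with HIF-1α and 10 to 11 with PPAR-γ. The lowest −log10 q of any call was 1.39 with HIF-1α and 3.59 with PPAR-γ. The PPAR-γ value lay well beyond the q limit of 5%, so fewer tags could have passed that limit in this library. How many tags a side needed to enter a peak was therefore not resolved.

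None of the other 30 Trbv segments was overlapped by a peak of either list. The nearest was Trbv2, whose end lay 544 bp from the HIF-1α and 533 bp from the PPAR-γ peak at Trbv3. The neighbours Trbv5, next to Trbv4, Trbv7 and Trbv9, on either side of Trbv8, and Trbv12-1 and Trbv12-2, on either side of Trbv13-1, lay 2.15 to 4.16 kb from the nearest HIF-1α peak. Trbv28 and Trbv30, beside Trbv29, lay 4.44 and 9.25 kb from it. Trbv13-2 and Trbv13-3, of the same subfamily as Trbv13-1, lay 4.68 and 13.4 kb from the nearest HIF-1α peak; they were named for their likeness to it, after the values were seen. How tags that fit several related segments were placed is not given in the sources used here, so a count at Trbv13-1 could include tags of its relatives or lack tags of its own.

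Every summit in the locus, from Trbv1 to Trbv31, lay in a member, so there was no summit just outside a segment there. The nearest HIF-1α summits beyond the locus were 11.1 Mb before it and 6.19 Mb after it. Outside the β locus, 0 of 512 annotated V segments of antigen receptor loci held a summit in either list. A HIF-1α peak on chromosome 12 with a pileup of 21 overlapped Ighv1-62, an immunoglobulin heavy chain pseudogene segment, by 8 bp with its summit 67 bp outside. That segment was named after its values were seen.

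The 18 annotated Trbd, Trbj and Trbc genes are the diversity and joining segments and the constant genes to which variable segments are joined. None of the 18 held a summit or had one within 10 kb in either list (0 of 18, exact upper limit 18.5%). That limit treats the genes as independent, but they lie close together, from chr6:41533201 to chr6:41548181, so it is too low. The nearest, Trbd1, was 261 kb from a HIF-1α and 417 kb from a PPAR-γ summit. A list of 21 genes of the locus and pathway holds the recombinase genes, the terminal transferase of junctions, the CD3 chains, the coreceptor CD4, signalling kinases and the constant genes. It repeats the Trbd and Trbc genes, so its limit is also too low. Of the 21, 0 had a summit within 10 kb in either list (exact upper limit 16.1%). The smallest distance was at Prss1, a trypsinogen gene inside the β locus, 187 kb from the HIF-1α summit at Trbv29. Of all 49997 annotated genes, 0.380% had a HIF-1α and 0.164% a PPAR-γ summit within 10 kb, shares that would give 0.0798 and 0.0344 of 21 genes. With so few peaks a count of 0 is what a list of this size gives at those shares, and nothing about these genes can be read from it. Trbd1 and Prss1 were named after their values were seen.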

How the data were processed

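The labels group the libraries by antibody, 1 each. Reads were handled with Bowtie2 2.2.5, SAMtools 1.1 and MACS on mm10, per the submitters' processing notes. Peaks were called with MACS 2.1.3.3, each library by itself, without a control file, in single-end mode, with 1 tag kept per position, a q-value limit of 5% and a genome size of 2.7 Gb, the human preset, per the file headers. The deposited pileup, a signal, counts extended tags over the summit base and was not scaled between libraries. The deposited −log10 p and q come from a Poisson test against local background, and the deposited fold enrichment is a ratio of pileup to that background, with 1 added to both. Lengths and positions, another deposited unit, are in bp, counted from 1.

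Segment positions came from the RefSeq gene table of GRCm38.p6, the assembly of mm10, which gives no strand. Computations used Python 3.11.15 with SciPy 1.17.1, and the geometry was tested on simulated data. Peaks overlapped by at least 1 bp. Total tags were 9433452 and 3403341. Depth-scaled ratios used kept tags. Alternatives were a −log10 p or fold of at least 10, peak midpoints, overlap, pseudogenes left out, the summit table, all tags, fold ratios and ratios relative to all pairs. The naming rule took the members, neighbouring segments, other Trbv segments under a peak and listed genes within 10 kb of a summit; no listed gene met it, and other names are marked in the text as chosen after their values were seen. The members and lists were chosen with earlier results of these data known. The sequence of the segments, and so motifs, were not analysed here.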

Additional observations from a re-analysis of the deposited data

How the results depend on the processing

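Of 32 alternative values, 22 stayed within counting error, the spread of the members or a factor of 1.5. Some of the 22 could not have moved and are no support. The members' lowest −log10 p was 13.1, any overlap includes a summit inside a segment, and the summit table held the same positions. The 22 also hold the fold enrichment ratio of 0.947 at Trbv3, which lay inside the counting interval although its direction turned. Keeping peaks with a fold of 10 or more, 2 members stayed in each list (2 for HIF-1α, 2 for PPAR-γ), fewer by construction. With peak midpoints in place of summits, 4 HIF-1α but 2 PPAR-γ members remained inside a segment, since the midpoint of a single-sided peak lies far from its summit, and the PPAR-γ midpoints lay 148.5 and 152 bp before the end (Trbv3, Trbv8) and 109.5 and 100 bp past it (Trbv4, Trbv13-1), so that their median of 24.25 bp before the end describes none of them. The median ratio of the 4 shared members was 0.970 by fold enrichment, with 3 of 4 below 1, where each library's background holds the summit's own tags, and 1.38 relative to the median of all pairs. At least 2-fold were 2 of 4 ratios, a limit chosen after seeing the data, as was the edge limit of 75 bp, which left the members' counts at 1 and 4 while the counts over all peaks rose from 21 to 36 (HIF-1α) and from 11 to 18 (PPAR-γ). No paired analysis was possible because the antibodies have a single library each. The search for motifs was not run. The PPAR-γ library is the shallower, and how its depth bears on weak segments was not tested.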
